A study of Mus musculus with 2 samples.

Results

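The cells described here are neutrophils of tumour-bearing mouse spleens that lay under set cut-offs for RNA of 2 genes. Camp encodes the cathelicidin of the secondary granules, and Wfdc17 encodes a secreted protein of the WAP family. The cells were chosen by measured values: S100a8 and S100a9 made up at least 10% of a cell's unique molecular identifiers (UMIs), Camp under 4% and Wfdc17 under 0.5%. Both genes were still present, at medians of 2.64% of UMIs for Camp and 0.112% for Wfdc17. The gates also asked for under 2 UMIs of Cd79a and Cd79b, under 3 of Csf1r, Ccr2, Ace and Adgre4, under 3 of Mki67, Top2a, Birc5, Cdk1, Ccna2 and Ube2c, and under 0.1% of Mpo, Elane, Prtn3 and Ctsg. This rule found 1617 of the 9155 cells of the PyMT library (17.7%, exact binomial 95% interval 16.9 to 18.5%), out of 14646 cells in both libraries. They are called PyMT Camp-lower cells and are set against the 1408 PyMT Camp-high cells, which passed the same gates with Camp at 4% or more. Because Camp divides these sets and the cells themselves chose the rule, all values of this contrast are descriptions and none is tested.

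The PyMT library was made from the pooled spleens of 3 mice with tumours, labelled PYMT for their polyoma middle T antigen transgene, and the WT library from the pooled spleens of 5 FVB/n control mice. The promoter of the transgene and the ages of the mice are not given in the sources used here. Red blood cells were lysed in both, and cells positive for the myeloid surface markers CD11b and Gr1 were sorted and profiled as droplet-based 3′ libraries. Each group is 1 library of pooled animals, so no test and no replicate error exist, and a condition cannot be told apart from its library. The 95% intervals below cover counting error only.

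Neutrophils mature in the bone marrow through stages that make their granules in sequence. Primary granule proteins are made first, secondary granule proteins such as lactoferrin and cathelicidin next, and gelatinase granule proteins last, after which the cell gains chemokine receptors and leaves the marrow. In mice with tumours, neutrophils of several of these stages gather in the spleen. Stefins are inhibitors of cysteine proteases, and mice have a cluster of stefin A genes that neutrophils use.

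Of the 1617 Camp-lower cells, 93.4% held UMIs of Mmp8, the neutrophil collagenase gene, against 16.0% of PyMT B cells in the same library. This is no independent check of identity, since Mmp8 is a label marker picked on these cells. The B cells were also shallower, at a median of 3501 UMIs. Retnlg, a resistin-like secreted protein gene of neutrophils, was seen in all Camp-lower cells but also in 96.5% of those B cells, so its share of cells says little and its level is given below. The label of these cells names 6 marker genes, and 5 of them were at least 1.5-fold higher than in PyMT Camp-high cells. The exception was BC100530, a stefin A cluster gene, at 1.28-fold. Among all 7339 genes compared, 7.04% were at least 1.5-fold higher, and the marker count is no finding, since the markers were picked on these cells. Median depth was 8748 UMIs per Camp-lower cell against 11215.5 per Camp-high cell. It was 3987 in the 1961 PyMT Wfdc17-higher cells, which passed the same gates with Camp under 4% but Wfdc17 at 0.5% or more, 3896 in 365 WT Camp-lower cells and 5393.5 in 2906 WT Camp-high cells. The libraries shared 72 cell barcodes, of which 12 belonged to Camp-lower PyMT cells.

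The marker genes lie at a few places in the genome (GENCODE release M21 on GRCm38). Retnlg (ENSMUSG00000022651) is at chr16:48872621-48874496 on the plus strand, Mmp8 (ENSMUSG00000005800) at chr9:7558456-7568485 on the plus strand, and Asprv1 (ENSMUSG00000033508), which encodes an aspartic protease, at chr6:86628164-86629710 on the plus strand. Stfa2 (ENSMUSG00000022902) at chr16:36403992-36408457, Stfa3 (ENSMUSG00000054905) at chr16:36450537-36455392 and BC100530 (ENSMUSG00000071561) at chr16:36359382-36367748 are all on the minus strand of the same stefin A cluster. That cluster matters for the results, since cells are split below on the sum of its genes. Its genes differ across that split by construction, while Retnlg and Mmp8 differed little. The 250 bases before the RefSeq start of Retnlg (chr16:48872358-48872607, plus strand), Mmp8 (chr9:7558179-7558428, plus), Stfa2 (chr16:36408364-36408613, minus), Stfa3 (chr16:36455393-36455642, minus) and Stfa2l1 (chr16:36156561-36156810, plus) are shown from RefSeq on GRCm38.p6, 5′ to 3′ along each gene. Capitals mark every match to TTNNGNAA, a core of the sites of C/EBP factors, on either strand.
Retnlg: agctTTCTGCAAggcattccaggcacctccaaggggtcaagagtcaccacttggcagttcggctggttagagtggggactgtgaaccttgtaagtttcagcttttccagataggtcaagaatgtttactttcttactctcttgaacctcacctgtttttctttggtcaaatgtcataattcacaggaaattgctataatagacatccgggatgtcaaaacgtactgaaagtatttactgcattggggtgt
Mmp8: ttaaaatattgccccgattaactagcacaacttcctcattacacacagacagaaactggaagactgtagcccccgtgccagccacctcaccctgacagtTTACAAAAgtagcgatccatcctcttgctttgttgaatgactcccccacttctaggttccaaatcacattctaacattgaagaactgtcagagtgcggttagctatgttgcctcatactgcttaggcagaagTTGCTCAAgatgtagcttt
Stfa2: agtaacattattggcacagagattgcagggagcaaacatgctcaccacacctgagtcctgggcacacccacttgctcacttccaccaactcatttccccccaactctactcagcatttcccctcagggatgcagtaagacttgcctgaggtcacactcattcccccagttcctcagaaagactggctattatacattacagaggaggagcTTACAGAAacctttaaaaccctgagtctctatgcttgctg
Stfa3: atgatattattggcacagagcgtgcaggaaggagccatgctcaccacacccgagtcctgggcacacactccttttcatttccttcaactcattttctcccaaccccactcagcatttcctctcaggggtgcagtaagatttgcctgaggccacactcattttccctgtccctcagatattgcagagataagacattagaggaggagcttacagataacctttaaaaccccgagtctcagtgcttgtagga
Stfa2l1: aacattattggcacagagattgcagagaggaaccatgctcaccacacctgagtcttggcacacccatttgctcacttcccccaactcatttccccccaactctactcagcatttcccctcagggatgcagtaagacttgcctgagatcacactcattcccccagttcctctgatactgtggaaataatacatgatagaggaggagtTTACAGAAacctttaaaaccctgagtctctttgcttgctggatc
The 3 stefin windows align over nearly their whole length: Stfa2 and Stfa2l1 were identical at 89.4% of 254 aligned positions, Stfa2 and Stfa3 at 80.2% of 253. The C/EBP letters occurred once in the Retnlg, Stfa2 and Stfa2l1 windows, had 2 matches in Mmp8 and none in Stfa3. Of 32841 windows of the same length in the table, 36.9% held them, so a match is common. The letters TTCNNNGAA of STAT sites had no match in these windows on either strand, and 7.02% of all windows held them. GAGGAAGT, a PU.1 core, matched once, in Mmp8 on the opposite strand, and was held by 2.44% of all windows; it did not overlap the C/EBP letters. These matches describe letters only.

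Retnlg was the most abundant of the markers. Its level, in UMIs per 1000000 UMIs of the summed cells (CPM), was 18433 in PyMT Camp-lower cells, 5487 in PyMT Camp-high cells, 30705 in PyMT Wfdc17-higher cells, 33300 in WT Camp-lower cells and 6609 in WT Camp-high cells. Camp-lower cells were thus above Camp-high cells in both libraries, with a log2 ratio of 1.75 (1.74 to 1.76) in PyMT and 2.33 (2.32 to 2.35) in WT. Between single PyMT Camp-lower cells Retnlg ran from 2041 CPM at the 5th percentile to 50607 at the 95th, so these cells were far from uniform. Mmp8 was at 1286 CPM in PyMT Camp-lower cells, 445 in PyMT Camp-high, 1208 in PyMT Wfdc17-higher, 1886 in WT Camp-lower and 939 in WT Camp-high cells. In CPM both genes were lower in PyMT Camp-lower than in WT Camp-lower cells, with log2 ratios of -0.85 (-0.87 to -0.84) for Retnlg and -0.55 (-0.61 to -0.50) for Mmp8. The Mmp8 value did not reach 1.5-fold. Both values rest on the scaling, since a trimmed mean of M-values moved the median gene of this comparison upwards by 0.37.

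The stefin genes and Asprv1 had another pattern, and among the 6 markers they had the largest gaps between the libraries. Asprv1 was at 674 CPM in PyMT Camp-lower, 385 in PyMT Camp-high, 756 in PyMT Wfdc17-higher, 63.4 in WT Camp-lower and 19.97 in WT Camp-high cells. Stfa2 was at 946, 610 and 1275 CPM in the PyMT Camp-lower, Camp-high and Wfdc17-higher cells, and at 104 and 12.9 CPM in the WT Camp-lower and Camp-high cells. BC100530 was the most abundant stefin gene, at 5613, 4382 and 5686 CPM in those PyMT sets and at 988 and 140 CPM in those WT sets. Stfa3 was at 976, 592 and 775 CPM in the PyMT sets and at 178 and 21.6 CPM in the WT sets. All 3 PyMT sets thus lay above both WT sets for each of these 4 genes. The log2 ratio of PyMT Camp-lower over WT Camp-lower cells was 3.41 (3.13 to 3.71) for Asprv1, 3.18 (2.96 to 3.41) for Stfa2, 2.51 (2.43 to 2.58) for BC100530 and 2.46 (2.28 to 2.63) for Stfa3. Cells with a UMI of Stfa2 were 800 of 1617 in PyMT and 9 of 365 in WT Camp-lower cells, and 5 cells held 5.44% of its UMIs in PyMT and 94.5% in WT. The other genes were seen in more WT Camp-lower cells, BC100530 in 115, Asprv1 in 52 and Stfa3 in 30. These counts of cells are not matched for depth, at medians of 8748 UMIs in PyMT and 3896 in WT Camp-lower cells. PyMT B cells also held UMIs of these genes, as given below, so the counts of the libraries cannot be compared directly.

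**Figure D1:**
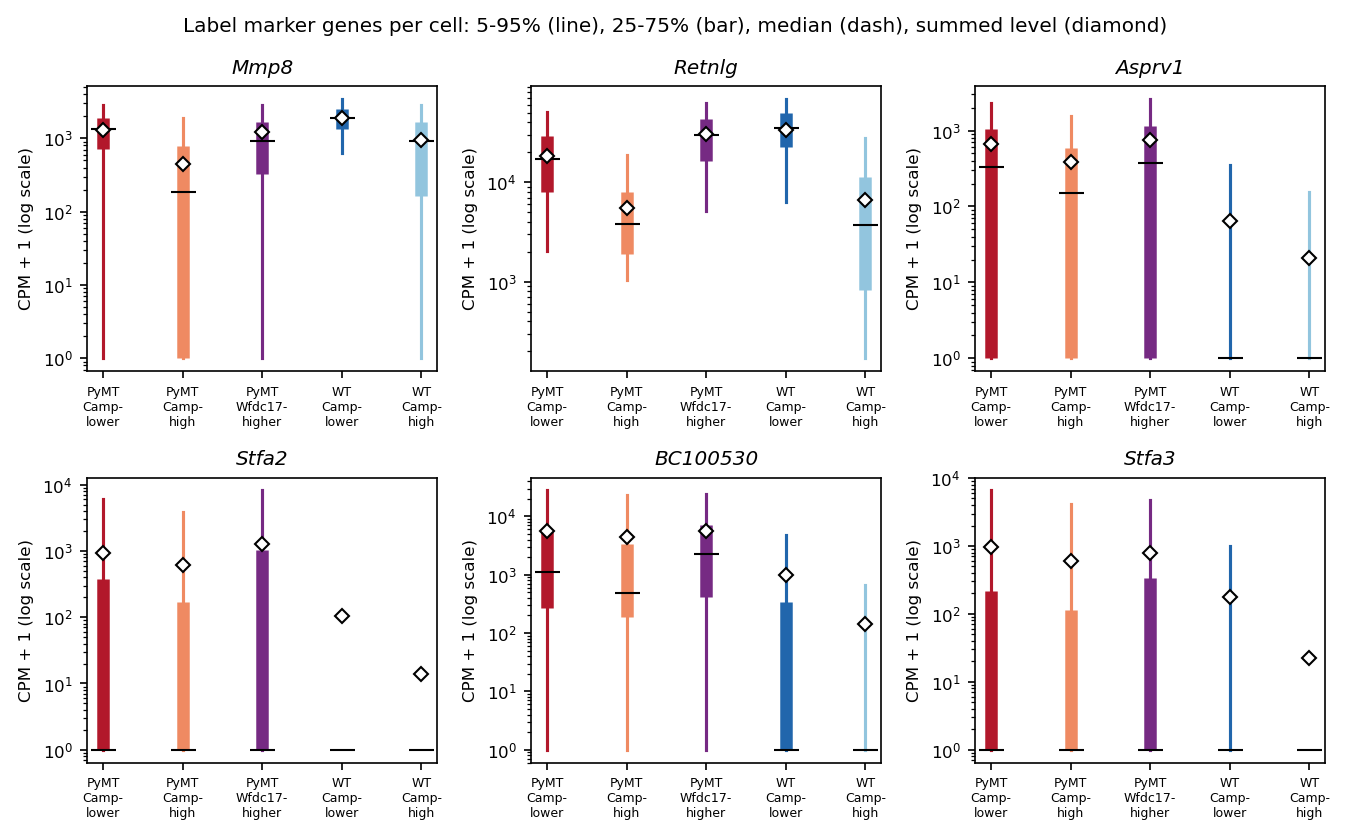
Levels of the 6 marker genes per cell as CPM + 1 on a log axis, for PyMT Camp-lower, PyMT Camp-high, PyMT Wfdc17-higher, WT Camp-lower and WT Camp-high cells; lines run from the 5th to the 95th percentile, bars from the 25th to the 75th, dashes are medians and diamonds the summed levels. Retnlg and Mmp8 are higher in Camp-lower than in Camp-high cells of both libraries (Retnlg 18433 against 5487 CPM in PyMT), while Asprv1 and the stefins are high in all PyMT sets and low in both WT sets.

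None of the 6 markers told these cells from PyMT Wfdc17-higher cells by being 1.5-fold higher. The log2 ratio of Camp-lower over Wfdc17-higher cells was 0.09 for Mmp8, -0.17 for Asprv1, -0.43 for Stfa2, -0.02 for BC100530, 0.33 for Stfa3 and -0.74 for Retnlg. Free RNA has to be set beside these levels. In 1140 PyMT B cells, taken as cells with at least 5 UMIs of Cd79a and Cd79b and S100a8 with S100a9 under 5%, Retnlg was at 1076 CPM, BC100530 at 273, Mmp8 at 50.6, Asprv1 at 50.2, Stfa2 at 49.4 and Stfa3 at 34.2 CPM. UMIs of BC100530 were seen in 56.1% of those B cells, at a median of 3501 UMIs per cell, against 92.4% of Camp-lower cells. The WT levels of Stfa2 and Stfa3 in Camp-high cells lie below those PyMT background levels, whereas the WT B cells held 0 and 0.556 CPM.

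The gene ranked highest in PyMT Camp-lower over Camp-high cells by the interval bound nearest 0, gate genes aside, encodes a secreted chemoattractant. Prok2, the prokineticin 2 gene, was at 535 CPM (523 to 547) in PyMT Camp-lower cells and 93.5 CPM (88.8 to 98.4) in PyMT Camp-high cells; the log2 ratio was 2.52 (2.44 to 2.60). After thinning each cell to 1000 UMIs, 33.8% of Camp-lower and 8.74% of Camp-high cells still held a UMI, and B cells of that library were at 16.5 CPM. Of the 12 highest genes, Retnlg and Mmp8 were in the list as well, along with Rhoc, a small GTPase gene, at 19.4 and 3.27 CPM, Slc15a3, a transporter of histidine and small peptides, at 25.9 and 5.84 CPM, and Ggt1, gamma-glutamyltransferase, at 44.9 and 11.3 CPM. Arg2, the gene of a mitochondrial enzyme that breaks down arginine, had 60.8 CPM in Camp-lower and 15.8 CPM in Camp-high cells (log2 ratio 1.94, 1.74 to 2.15), and Ankrd33b had a log2 ratio of 1.77 (1.53 to 2.03).

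The other 4 of those 12 were genes listed as markers of erythroid or NK cells. Hba-a1, Hbb-bs and Hbb-bt, which encode hemoglobin, had log2 ratios of 2.28, 1.81 and 2.32, and 77.9%, 72.8% and 84.0% of their UMIs in the Camp-lower sum lay in 5 cells. Gzma, a granzyme of killer cells, had 100 UMIs in 16 of the 1617 cells, 89.0% of them in 5 cells. Without cells that held 5 or more UMIs of hemoglobin, of class II genes and Cd74, of the NK list or of the platelet list, a choice made after the data were seen that left 1549 Camp-lower and 1316 Camp-high cells, the log2 ratios were 0.17 for Hba-a1, -0.06 for Hbb-bs, -0.22 for Hbb-bt and 0.68 for Gzma. Across the marker lists of other cells, the erythroid genes together were at 296 CPM in Camp-lower and 85.9 CPM in Camp-high cells, and the NK markers at 22.8 and 12.9 CPM. The B cell markers outside the gates were at 304 and 194 CPM, and the platelet markers at 17.3 and 9.92 CPM. T cell markers were at 293 and 243 CPM, nearly all of it Cd3d, macrophage markers at 194 and 142 CPM with Cd5l at 0 in both, and monocyte markers outside the gates at 3930 and 3449 CPM. Dendritic cell markers were at 46.1 and 38.9 CPM with Siglech and Zbtb46 at 0, and basophil and mast cell markers at 396 and 278 CPM with Fcer1a at 0. Eosinophil markers were at 35.2 and 41.9 CPM with Prg2, Prg3 and Epx at 0, and mammary epithelial markers at 2.01 and 2.26 CPM. The monocyte list had 5 or more UMIs in 99.4% of Camp-lower and 99.9% of Camp-high cells. For the basophil and mast cell list these shares were 30.7% and 23.3%. In WT Camp-lower cells Hdc alone of that list had UMIs. In the same restricted cells 504 genes were at least 1.5-fold higher and 628 lower, against 517 and 602 among all cells.

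Among the 12 lowest genes, Fcnb, which encodes the lectin ficolin B, was at 27.3 CPM (24.6 to 30.1) in PyMT Camp-lower cells and 134 CPM (128 to 139) in PyMT Camp-high cells (log2 ratio -2.29, -2.45 to -2.14). Ms4a3, a membrane protein gene of granulocyte progenitors, had 13.8 CPM in Camp-lower and 48.4 CPM in Camp-high cells (log2 ratio -1.81, -2.04 to -1.58). Chil3, a chitinase-like protein gene, was at 2414 and 5120 CPM, and Orm1, the orosomucoid gene, at 95.8 and 232 CPM. Ccnb2, a mitotic cyclin gene outside the gate, was at 5.76 and 17.0 CPM. Igfbp4, Vimp, Syngr1, Zmpste24, Selo, Trim37 and Rab13 completed the 12 lowest, with log2 ratios between -1.57 and -1.21. Of all 7339 genes, 8.20% were at least 1.5-fold lower. The higher genes were 46.2% of the calls, or 35.1% when the 50 most abundant genes were left out of the total.

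The same contrast in the WT library, which the rule did not use, gave much of the same order. There 13.6% of 7062 genes were at least 1.5-fold higher in Camp-lower than in Camp-high cells and 17.8% lower, a split of 43.2% higher among the calls that became 26.7% with the median of ratios. Of the 12 highest PyMT genes, 10 had enough UMIs in WT and all 10 were at least 1.5-fold higher there too; Hbb-bt and Ggt1 had too few. Those 10 include Hba-a1, Hbb-bs and Gzma, whose UMIs lay in 6, 4 and 3 of the 365 WT Camp-lower cells. Without cells carrying markers of other cells the WT log2 ratio was -0.95 for Hbb-bs and 1.01 for Hba-a1, against 4.57 and 4.74 with them. Of the 12 lowest, 11 were also at least 1.5-fold lower in WT, and Vimp, at -0.25, was the exception. Over 6853 genes measured in both, 315 of the 419 higher in PyMT were higher in WT, which is 75.2% of the PyMT list and 34.5% of the WT list, beside 13.3% of all genes. Of the 526 lower in PyMT, 309 were lower in WT, which is 58.7% of the PyMT list and 26.0% of the WT list, beside 17.3%. The opposite WT direction was seen for 12 of the 419 and 15 of the 526 genes, beside 17.3% and 13.3% of all genes. These contrasts share no cells.

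How common such cells were did differ between the libraries. Among cells that passed the other gates with Wfdc17 under 0.5%, Camp was under 4% in 1617 of 3025 PyMT cells (53.5%, 51.7 to 55.2%) and in 365 of 3271 WT cells (11.2%, 10.1 to 12.3%). Median Camp was 2.64% of UMIs in PyMT and 2.75% in WT Camp-lower cells, and 4.89% and 7.47% in the Camp-high cells, so the PyMT Camp-high cells sat nearer to the threshold. Of the cells that passed all gates but those of Wfdc17 and Camp, 3025 of 5009 in PyMT and 3271 of 3272 in WT had Wfdc17 under 0.5%. The mice, their tumours and the library preparation cannot be told apart here.

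Levels differed along the whole Camp share, on both sides of the 4% threshold as well as across it. In the 622 PyMT cells just inside, with Camp from 3 to 4%, Retnlg was at 11066 CPM, and in the 779 cells just outside, from 4 to 5%, it was at 6254 CPM. In the bins under 1%, 1 to 2% and 2 to 3% Camp it was at 36908, 27540 and 16962 CPM, and from 5 to 6% and 6 to 8% at 4766 and 4044 CPM. For Retnlg, Mmp8, Prok2 and Asprv1 the ratio between neighbouring PyMT bins up to 8% was largest across 4%, where Mmp8 was at 932 CPM in the bin below and 499 CPM in the bin above, and Asprv1 at 602 and 411 CPM. Prok2 was at 1299, 240, 113 and 47.6 CPM in the bins under 1%, 3 to 4%, 4 to 5% and 6 to 8% Camp, and Ifitm1, an interferon-induced membrane protein gene, at 4251, 1148, 760 and 469 CPM. Some granule genes ran the other way. Fcnb was at 2.40, 49.5, 108 and 198 CPM in those bins, and Ltf, the lactoferrin gene, at 2409, 11768, 12674 and 13755 CPM. Ngp, a secondary granule protein gene, was at 17779, 49311, 54740 and 58456 CPM. Other granule genes did not climb: Mmp9, a gelatinase gene, fell along those bins, at 1038, 775, 628 and 518 CPM, as Mmp8 did. The stefin gene BC100530 had a flatter course, at 5467, 5412, 5019 and 2885 CPM. WT cells showed the same slope for Retnlg, at 53906, 24798, 18834 and 6005 CPM, and for Ltf, at 1251, 9244, 11040 and 13464 CPM. The PyMT bin at 8% and over held 16 cells and is not described.

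**Figure D2:**
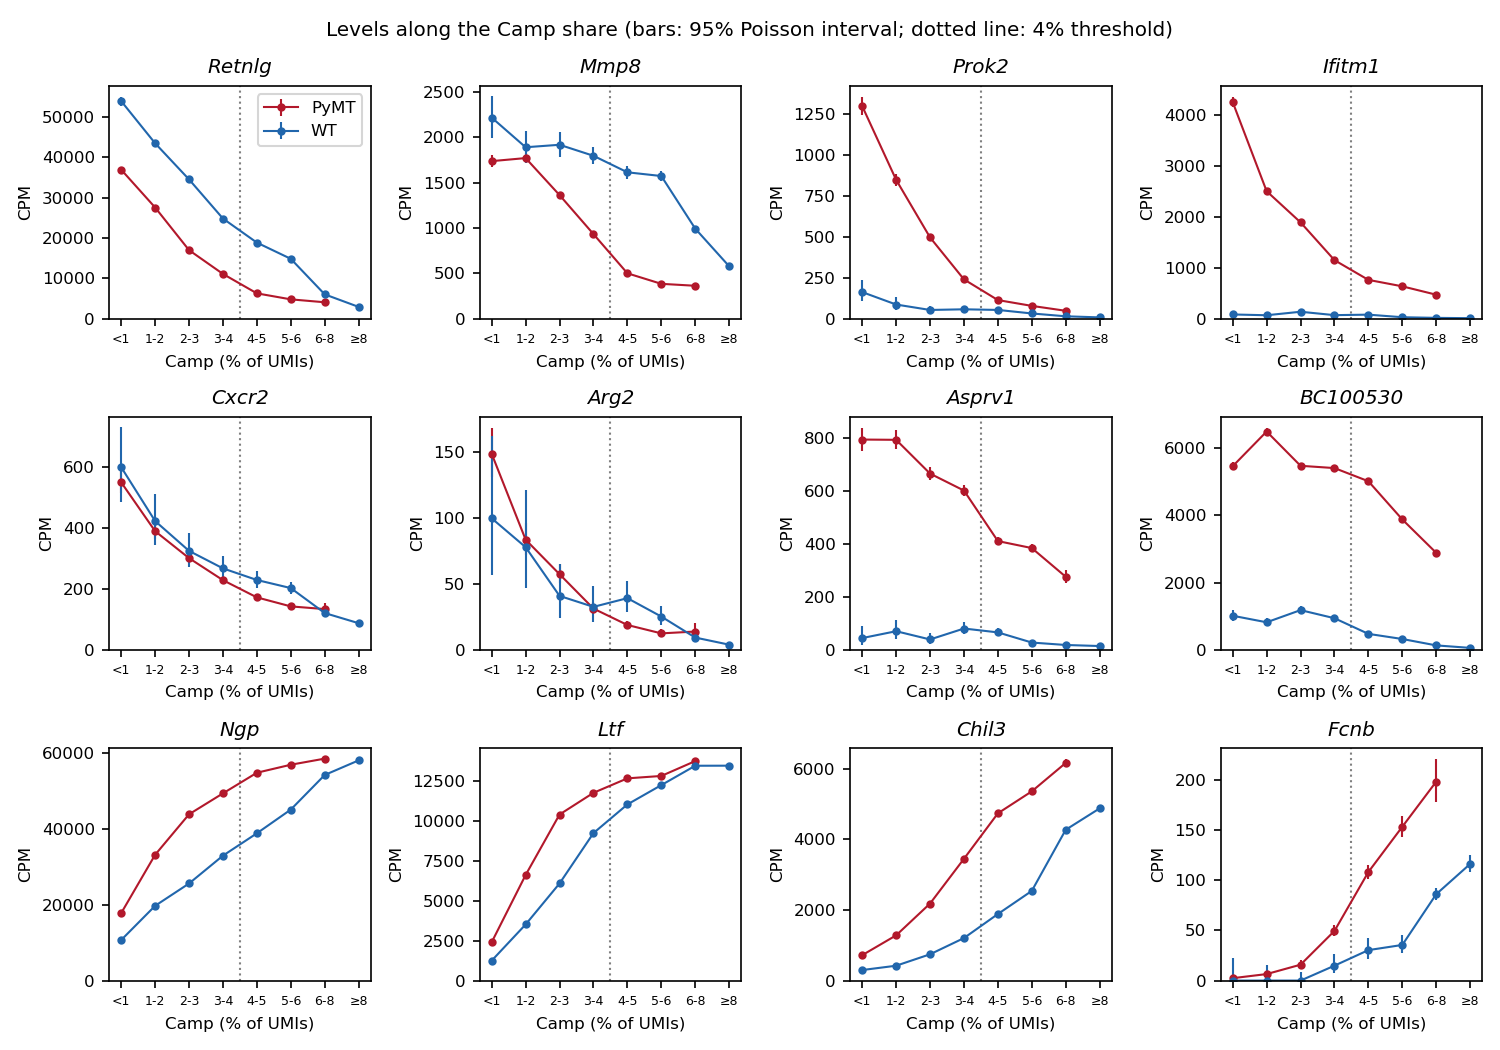
Summed levels (CPM) of 12 genes in bins of Camp share (% of UMIs), PyMT in red and WT in blue, with 95% Poisson intervals and the 4% threshold dotted; bins under 20 cells are left out. In PyMT Retnlg, Prok2, Ifitm1 and Cxcr2 decline and Ngp, Ltf, Chil3 and Fcnb climb along the axis on both sides of the threshold and across it (Retnlg 11066 CPM in the bin below it and 6254 CPM in the bin above it in PyMT).

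In the gelatinase granule and late protease list, 8 of 16 genes passed 1.5-fold upwards in Camp-lower cells of PyMT, 0 passed it downwards and 8 lay in between, beside 7.04% higher over all genes. The median log2 ratio was 0.57 beside -0.02 over all genes. The higher ones include the label markers Mmp8 and Asprv1, which were picked on these cells, and Mmp9, Adam8, Adam19, Timp2, Slc11a1 and Fpr1. Slc11a1, a phagosomal metal transporter gene, was at 46.6 CPM in Camp-lower and 17.7 CPM in Camp-high cells, and Timp2, a metalloproteinase inhibitor gene, at 176 and 86.2 CPM. The WT counts were 8 and 1, beside 13.6% higher and 17.8% lower over all genes in WT, and the WT median was 0.59.

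Of 32 late maturation genes, 13 were at least 1.5-fold higher, 0 lower and 19 in between, with a median of 0.49; over all genes 7.04% were higher. Cxcr2, the chemokine receptor that draws neutrophils out of the marrow, was at 312 CPM (303 to 321) in PyMT Camp-lower and 156 CPM (150 to 163) in PyMT Camp-high cells (log2 ratio 1.00, 0.92 to 1.07). Clec4d and Clec4e, C-type lectin receptor genes, were at 41.8 and 152 CPM in Camp-lower cells and at 15.01 and 63.6 CPM in Camp-high cells. Selplg, the gene of the P-selectin ligand, was at 307 and 152 CPM. The WT counts were 17 of 32 and 0, beside 13.6% higher and 17.8% lower over all genes in WT, and the WT median was 0.72. Among chemoattractant receptors 5 of 12 were higher and 0 lower, including Fpr1, the formyl peptide receptor gene, at 157 and 72.9 CPM.

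Receptors of the Fc, TREM, CD300 and inhibitory list had 11 of 27 members higher and 0 lower, with a median of 0.44. Over all genes 7.04% were higher and 8.20% lower. Sirpb1a, Sirpb1b and Sirpb1c, signal regulatory protein genes, had log2 ratios of 1.77, 1.45 and 1.69, but between 35.5 and 57.4% of the 50-base stretches near their 3′ ends occur in another of the 3, so their split is uncertain. Growth factor and cytokine receptors had 6 of 20 higher and 0 lower, with Csf3r, the G-CSF receptor gene, at 176 and 101 CPM and Il13ra1 at 27.5 and 11.5 CPM. Pattern recognition receptors had 8 of 27 higher and 1 lower, and Tlr2 was at 48.8 and 19.5 CPM.

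The medians of the signalling and cytokine lists were also above 0. Their counts stand beside 7.04% higher and 8.20% lower over all genes. Of 16 STAT3 targets and acute phase genes, 10 were higher and 0 lower (median 0.72), among them Prok2, the cytokine gene Osm at 148 CPM in Camp-lower against 72.5 CPM in Camp-high cells, and the transcription factor gene Cebpb at 694 against 365 CPM. Interferon response genes had 13 of 31 higher and 0 lower (median 0.52). Ifitm1 was at 1942 against 683 CPM, beside 801 CPM in the summed PyMT B cells, whose single cells had a median of 313 CPM, a 75th percentile of 606 and a 95th of 3490. Rtp4, an interferon-induced chaperone gene, was at 45.2 against 17.2 CPM. Of 18 genes that writing on this study ties to suppressive cells, 13 were higher and 0 lower (median 0.94), but that list was chosen on these samples. Inflammatory genes had 7 of 24 higher and 0 lower, led by the chemokine gene Cxcl2 at 109 against 44.5 CPM. Il1b, the interleukin 1 beta gene, was at 159 against 119 CPM, beside 333 CPM in the summed PyMT B cells, of which 35% held a UMI. Rtp4 was at 24.1 CPM in those B cells.

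Secondary granule genes other than Camp differed little as a list, 1 of 24 higher, 4 lower and a median of -0.12. The shares over all genes were 7.04% higher and 8.20% lower. The lower ones were Chil3, Orm1, Fcnb and Lta4h, and Mmp8 was the higher one; Ltf was at 9459 against 12873 CPM, a log2 ratio of -0.44 (-0.45 to -0.43). In WT 9 of 24 were lower and 2 higher, beside 17.8% and 13.6% of all genes, with Ltf at 6684 against 13181 CPM. Primary granule genes outside the gate were split, with Srgn, the serglycin gene, at 174 against 72.0 CPM and Ms4a3 lower, as given above. Among granulopoiesis transcription factors 5 of 28 were higher and 3 lower. Cebpe, which drives secondary granule genes, was at 295 against 548 CPM, and Gfi1, a repressor that granulocyte differentiation needs, at 2.50 against 6.03 CPM.

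Genes of protein synthesis, division and respiration had medians below 0. As a reference for the counts here, 7.04% of all genes were higher and 8.20% lower. Of 54 ribosomal protein genes 0 were higher and 1, Rpsa, was lower, with a median of -0.35, while the WT median was 0.20, 0.04 with the median of ratios and -0.10 without the WT cells that carried markers of other cells. Cell cycle genes outside the gate had 0 of 25 higher and 5 lower, with Stmn1, the stathmin gene, at 6.38 against 16.1 CPM. Nuclear oxidative phosphorylation genes had 0 of 40 higher and 2 lower (median -0.20). NADPH oxidase genes were near even, with a median of -0.04, and the proton channel gene Hvcn1 was at 28.1 against 58.5 CPM. In redox defence 4 of 23 genes were higher and 0 lower, led by the ferritin gene Fth1 at 2045 against 1171 CPM. Actin and migration genes had 0 of 31 beyond 1.5-fold.

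The remaining lists were mixed, beside 7.04% higher and 8.20% lower over all genes. Immediate-early genes had 6 of 21 higher and 0 lower, Bcl2 family and survival genes 4 of 20 and 0, and adhesion genes 3 of 14 and 0. Lysosome genes had 3 of 25 higher and 3 lower, with the macrosialin gene Cd68 at 43.5 against 19.97 CPM. Eicosanoid and lipid genes had 2 of 17 higher and 4 lower. Pla2g7, a platelet-activating factor hydrolase gene, was at 75.5 against 30.3 CPM, beside 77.8 CPM in PyMT B cells, and the fatty acid binding protein gene Fabp5 at 148 against 59.5 CPM, while Acsl1, an acyl-CoA synthetase gene, was at 39.0 against 70.4 CPM. The S100, annexin and antimicrobial list had 4 of 23 higher and 2 lower, MHC class I genes 0 of 18 higher and 1 lower, glycolysis and related genes 1 of 28 each way, and mitochondrially encoded genes 0 of 12 each way.

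**Figure D3:**
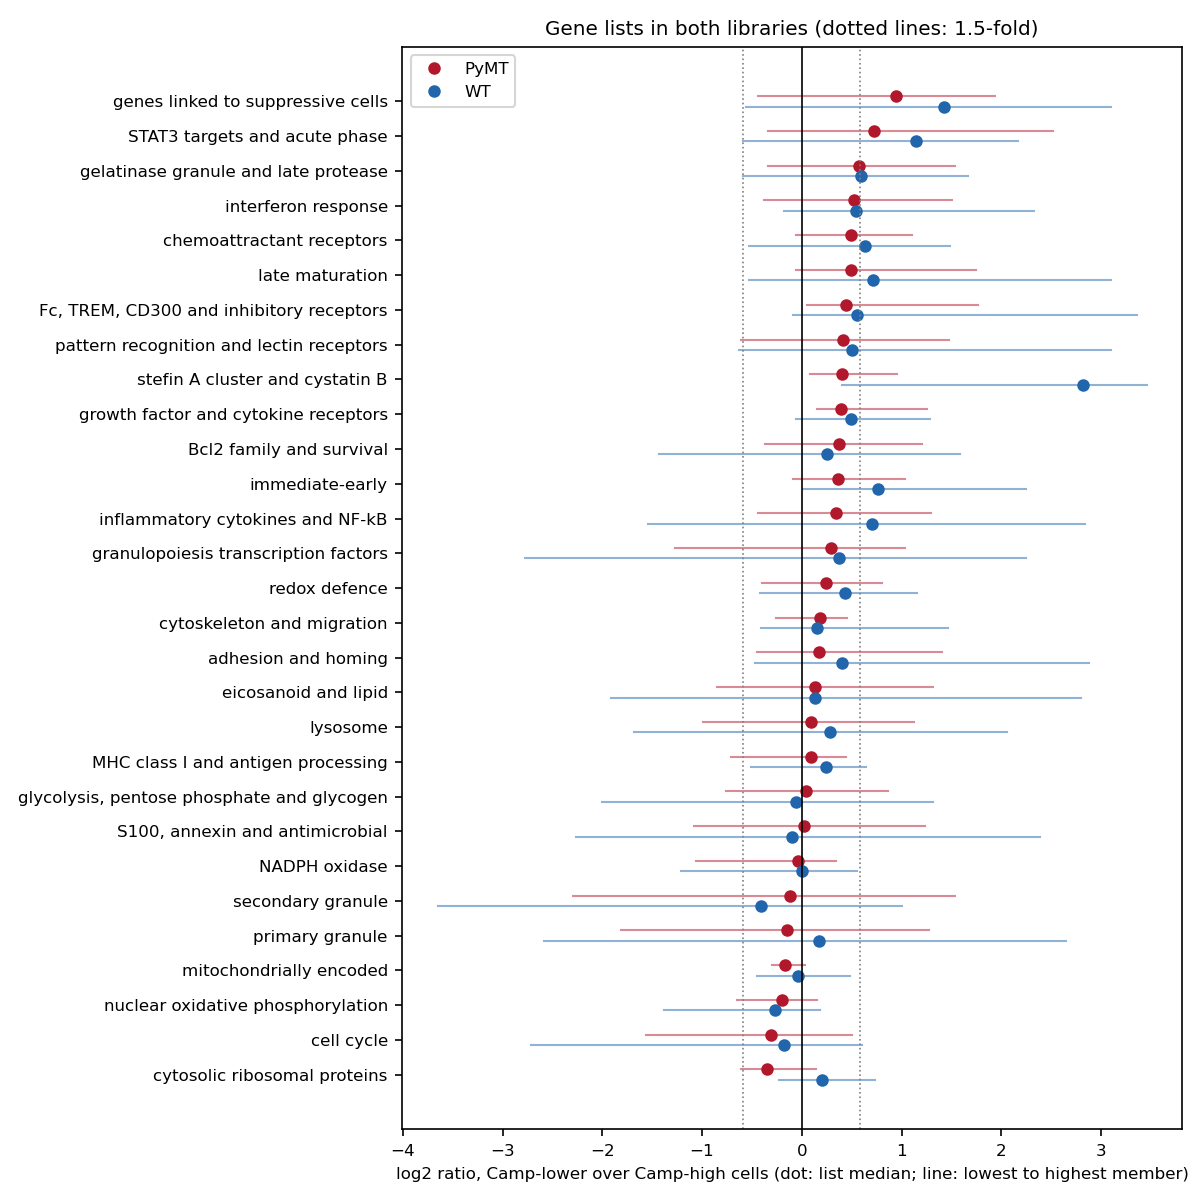
Log2 ratios of Camp-lower over Camp-high cells for 29 gene lists, PyMT in red above WT in blue; dots are medians over the members measured, lines run from the lowest to the highest member, and dotted lines mark 1.5-fold. Most lists lie on the same side in both libraries, with the stefin median at 0.40 in PyMT and 2.82 in WT and the ribosomal median at -0.35 in PyMT and 0.20 in WT.

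To ask how Camp-lower cells of tumour-bearing spleens differ from their WT counterparts, the 1617 PyMT cells were set against the 365 WT Camp-lower cells. Of 6222 genes 11% passed 1.5-fold in the PyMT direction and 24.1% in the WT direction. That split rests on the scaling: 31.4% of the calls were higher in CPM, but 68.3% with a trimmed mean of M-values, which moved the median gene by 0.37, and 51.2% with the median of ratios, which moved it by 0.19. Ifitm1 was at 1942 CPM in PyMT and 86.4 CPM in WT Camp-lower cells (log2 ratio 4.49, 4.25 to 4.75), and Prok2 at 535 and 71.0 CPM. These sets were not matched for Wfdc17 inside its gate, with medians of 0.112% of UMIs in PyMT and 0 in WT. In the 318 PyMT cells under 0.05% Wfdc17, Ifitm1 was at 970 CPM and Prok2 at 222 CPM. The summed PyMT B cells held 801 CPM of Ifitm1 and 16.5 CPM of Prok2, and the summed WT B cells 27.2 and 0 CPM. How much of the Ifitm1 gap between the libraries was free RNA was not tested. The endothelial lipase gene Lipg was at 55.4 and 1.28 CPM (2 UMIs in WT), and Npl, a sialic acid lyase gene, at 67.8 and 2.56 CPM. Igfbp6, a binding protein of insulin-like growth factors, and Saa3, an acute phase serum amyloid gene, had 0 UMIs in the WT sum and 539 and 295 in PyMT; against a floor of 3 counts in that sum their log2 ratios were at least 4.28 and 3.41. Their PyMT levels, 37.4 and 20.5 CPM, lay below those of the PyMT B cells, 65.8 and 67.9 CPM, so free RNA could not be told apart from RNA of the cells.

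Thbs1, the gene of the matrix protein thrombospondin 1, was lowest in PyMT, at 2.91 CPM against 189 CPM in WT (log2 ratio -6.02, -6.52 to -5.55). Hspa1a, a heat shock gene, was at 11.3 against 109 CPM and Crip1, a LIM domain protein gene, at 46.3 against 287 CPM. Those 2 were less far apart without cells carrying markers of other cells, with log2 ratios of -1.63 and -1.49 against -3.27 and -2.63 before. B cell markers outside the gates were at 304 CPM in the PyMT and 1169 CPM in the WT Camp-lower sum, and 74.0% of the WT UMIs lay in 5 cells. Ear2, Stk39 and Dtd1 had log2 ratios of -2.63, -2.65 and -2.99. Their levels in WT Camp-lower cells were 109, 94.1 and 57.0 CPM, beside 100, 2.22 and 19.5 CPM in the summed WT B cells. How much of the WT Ear2 level was free RNA was not tested.

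By lists, 17 of 27 interferon response genes were higher in PyMT Camp-lower cells and 2 lower, with a median of 0.83 and values of 0.91 to 1.20 under the other scalings and without cells carrying markers of other cells. STAT3 targets had 9 of 14 higher and 1 lower, and the stefin list 7 of 9 higher and 0 lower. Immediate-early genes had 0 of 21 higher and 11 lower, with a median of -0.66, and 8 of 18 lower without cells carrying markers of other cells. Inflammatory and NF-kB genes had 2 of 23 higher and 15 lower, or 3 and 8 with a trimmed mean of M-values. Il1rn, the interleukin 1 receptor antagonist gene, was at 32.8 against 118 CPM and the chemokine gene Ccl6 at 108 against 359 CPM. The summed WT B cells held 15.6 CPM of Il1rn and 302 CPM of Ccl6. How much of the WT Ccl6 level was free RNA was not tested. Late maturation and gelatinase lists had medians of -0.24 and -0.17, which became 0.13 and 0.20 with a trimmed mean of M-values, so no direction is given. Cxcr2 was at 312 against 340 CPM and Csf3r at 176 against 191 CPM.

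Camp-lower cells were also set against the PyMT Wfdc17-higher cells, a split that Wfdc17 itself chose. Of 6973 genes 12% were at least 1.5-fold higher in Camp-lower cells and 19.4% lower; the higher ones were 38.3% of the calls, or 60.5% when the 50 most abundant genes were left out of the total. Secondary granule genes were higher in 17 of 24, with 0 lower and a median of 0.92: Ltf was at 9459 CPM in Camp-lower and 2429 CPM in Wfdc17-higher cells, Cybb, an NADPH oxidase subunit gene, at 627 and 215 CPM, and Chil3 at 2414 and 741 CPM. Cebpe was at 295 and 86.2 CPM, and Ada, the adenosine deaminase gene, at 34.4 and 7.88 CPM. In the other direction Il1b was at 159 and 1606 CPM, Ccl6 at 108 and 1189 CPM, Steap4, a metalloreductase gene, at 14.3 and 187 CPM, and Csf3r at 176 and 716 CPM. Genes tied to suppressive cells had 0 of 18 higher and 16 lower, immediate-early genes 0 of 22 and 20, and late maturation genes 0 of 33 and 17. Median Camp was 2.64% of UMIs in Camp-lower and 0.181% in Wfdc17-higher cells, and these sets also differ in depth, as given above.

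Within the Camp-lower cells levels also followed Wfdc17 below its gate. In the 318 cells under 0.05% Wfdc17 Prok2 was at 222 CPM, in the 498 cells from 0.2 to 0.5% it was at 868 CPM, and in the 163 cells just outside the gate, from 0.5 to 0.7%, at 1058 CPM. Ifitm1 was at 970, 3255 and 4029 CPM in those bins, and Arg2 at 29.1, 98.2 and 124 CPM. Ltf was at 11084, 7050 and 5696 CPM. Thus Prok2, Ifitm1 and Arg2 were higher and Ltf lower where Wfdc17 was higher, the reverse of their course along Camp. Stfa2, at 977, 788 and 1188 CPM, and Asprv1, at 570, 723 and 782 CPM, changed less.

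Stefin RNA also varied widely between the Camp-lower cells. The 8 genes of the cluster, Stfa1, Stfa2, Stfa2l1, Stfa3, BC100530, BC117090, Gm5483 and 2010005H15Rik, summed to a median of 0.205% of a cell's UMIs, with a 5th percentile of 0.0184%, a 95th of 5.50% and a maximum of 13.6%. The tenth of cells with most stefin UMIs held 63.1% of them. A split at 0.5%, set after these values were seen and used only to describe them, put 541 cells at or over it and 1076 under it, with 62 cells between 0.4 and 0.5% and 58 between 0.5 and 0.6%. Both kinds were alike in depth, at medians of 9081 and 8629.5 UMIs, and in Camp, at 2.47 and 2.70% of UMIs.

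By construction the stefin sum differed between those cells. Each of the 8 genes was higher in the cells at or over the split, but no gene was set against a split that left it out. BC100530 was at 14854 CPM in the stefin-rich and 817 CPM in the other Camp-lower cells, Stfa3 at 2740 and 59.6 CPM, Stfa2 at 2599 and 87.3 CPM and Gm5483 at 4454 and 149 CPM. Up to 33.7% of the 50-base stretches near the 3′ ends of the 8 stefin transcripts occur in another gene of the cluster (0 in Stfa3); the part of shared sequence in these values was not tested. The other markers did not follow: Retnlg was at 18683 and 18304 CPM, Mmp8 at 1254 and 1302 CPM, Cxcr2 at 311 and 312 CPM and Cstb, the cystatin B gene on another chromosome, at 112 and 117 CPM. Asprv1 was slightly higher, at 776 and 621 CPM. Outside the cluster and the gates, 4579 genes had at least 100 UMIs over both kinds of cells, a higher minimum than the 50 of the other comparisons. Of these, 31 were at least 1.5-fold higher in stefin-rich cells and 26 lower, which is 1.24%. Among the higher ones was the class II gene H2-Aa, at 94.4 and 45.0 CPM, and the lower ones held the hemoglobin genes, with Hbb-bs at 35.9 and 185 CPM. Over all Camp-lower cells, 5 cells held 30.7% of the UMIs of the B cell list and 5 held 69.3% of those of the erythroid list. How far such cells set these values was not tested.

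Stefin-rich cells occurred along the whole Camp range of the PyMT library. They were 33.5% of PyMT Camp-lower cells (31.2 to 35.8%), 26.0% of PyMT Camp-high cells (23.7 to 28.4%) and 52.7% of PyMT Wfdc17-higher cells (50.4 to 54.9%). By Camp share they were 42.1% of the PyMT cells under 1%, 32.0% from 3 to 4%, 28.5% from 4 to 5% and 15.9% from 6 to 8%. In WT they were 10.7% of Camp-lower cells (7.71 to 14.3%) and 1.14% of Camp-high cells (0.783 to 1.59%), with 20.8, 6.96, 3.90 and 0.874% in the same 4 bins. In each of these bins the PyMT share lay above the WT share.

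**Figure D4:**
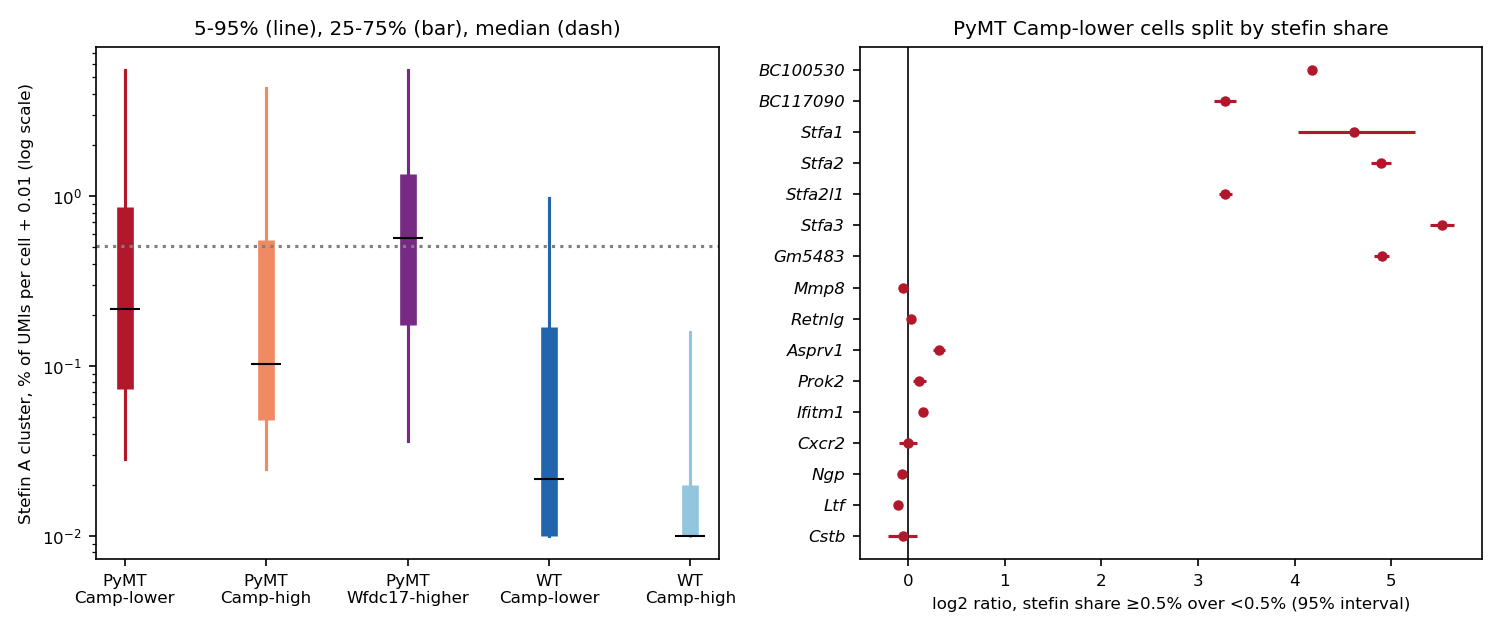
Left, the share of UMIs from the 8 stefin A cluster genes per cell (% + 0.01, log axis) in PyMT Camp-lower, PyMT Camp-high, PyMT Wfdc17-higher, WT Camp-lower and WT Camp-high cells, drawn from the 5th to the 95th percentile (line), the 25th to the 75th (bar) and at the median (dash), with the 0.5% split dotted. Right, log2 ratios with 95% intervals of stefin-rich over other PyMT Camp-lower cells, in which the cluster genes shown exceed 3 and Retnlg, Mmp8 and Cxcr2 lie near 0 (18683 and 18304 CPM for Retnlg).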

How the data were processed

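Spleen cells sorted on CD11b and Gr1 were loaded on a 10x Genomics Chromium instrument and made into 3′ version 2 libraries, per the labels' protocols; sequencing depth averaged 48488 reads a cell. The submitters' processing notes name Cell Ranger 2.1.0 and mm10. The deposited files hold raw counts of UMIs per gene and cell, made by the authors, for 27998 genes. No cell had under 2502 UMIs in the PyMT or 2752 in the WT file; the sources used here do not name the filter. The libraries summed to 73435307 UMIs in 9155 PyMT cells and 42542700 in 5491 WT cells.

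From those counts the gates were applied per cell, UMIs were summed per set and scaled to CPM with exact Poisson 95% intervals, and log2 ratios were given an exact conditional interval. Shares of cells have exact Clopper-Pearson intervals. PCR copies are removed only as far as UMIs do so, and all intervals cover counting error only. Genes with at least 50 UMIs over both sums were compared, gate genes were left out, and 1.5-fold counted as higher or lower. For the stefin split the minimum was 100 UMIs. A sum at 0 was set to a floor of 3 counts, which gives a bound. No doublets were removed; leaving out the 5% of gated cells with most UMIs was an alternative. Python 3.11.15, numpy 2.4.6, scipy 1.17.1, biopython 1.88 and matplotlib 3.10.9 were used. The ratio calculation was tested on simulated sums.

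The cells, their label markers and the gene lists were chosen with earlier results of these data known. Genes are named by rule: with at least 100 UMIs and ranked by the interval bound nearest 0, the 12 highest and 12 lowest of the PyMT contrast and 6 and 6 of each other one, the label markers, and up to 4 genes of each list; ribosomal, mitochondrially encoded, receptor segment and unnamed genes stay out of the ranking. Genes given to complete a count, and those of the stefin split and the bins such as Ngp, H2-Aa and Cstb, were chosen after their values were seen.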

Additional observations from a re-analysis of the deposited data

How the results depend on the processing

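The limits are those of 1 library per group, pooled mice, cells chosen on their own values and sets of unequal depth. No paired analysis was possible because each group has 1 library and no result comes from a test. Of 178 log2 ratios of named genes, each recomputed under 16 alternatives, 2346 of 2848 values stayed within the interval as reported, 488 moved outside it with the sign mostly kept, and 14 turned round for genes that had been called. The count that stayed is partly fixed in advance. The alternatives of at least 10 and at least 200 UMIs change only which genes are compared and cannot move a gene's log2 ratio. The filter on genes and mitochondrial UMIs kept 1616 of the 1617 PyMT Camp-lower cells. Of 656 list medians, 615 stayed within 0.2, 38 moved further and 3 turned round.

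The values that turned round were these. With Wfdc17 under 0.1%, log2 ratios of PyMT Camp-lower over PyMT Camp-high cells were -1.10 for Bcl2a1b, -0.21 for Saa3 and -0.028 for Wfdc18, against 1.21, 0.76 and 1.24 as reported. With cells thinned to 1000 UMIs they were -0.20 for Dusp5 and -1.78 for Klf4. With under 1 cycling UMI they were -0.017 for Hbb-bs, -0.17 for Hbb-bt, 0.11 for Rrm2 and -0.24 for the NK list. With Camp under 3% against 5% or more, Hbb-bs was at -0.026 in PyMT and -0.62 in WT. Without cells carrying markers of other cells, Bcl2a1b was at -0.32, Hbb-bt at -0.22, Hbb-bs at -0.063 in PyMT and -0.95 in WT, and the erythroid and platelet medians at -0.063 and -0.15.

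Counts of genes depended on the minimum and the scaling. For PyMT Camp-lower over PyMT Camp-high cells, 517 genes were higher and 602 lower; these were 1254 and 1402 with thinned cells, 1048 and 1261 with at least 10 UMIs and 310 and 213 with at least 200, and the higher count was 779 with Camp under 3% against 5% or more and 317 with Wfdc17 under 0.1%. For PyMT Camp-lower over WT Camp-lower cells, 687 were higher and 1502 lower; a trimmed mean of M-values gave 1514 and 702, at least 10 UMIs 1036 and 2989, at least 200 UMIs 296 and 581, and the higher count was 1067 with the median of ratios and 1079 with thinned cells. For PyMT Camp-lower over PyMT Wfdc17-higher cells, 839 were higher and 1350 lower; these were 1436 and 2164 with at least 10 UMIs and 416 and 844 with at least 200, and the higher count was 1399 without the 50 most abundant genes in the total and 1343 with thinned cells. For WT Camp-lower over WT Camp-high cells, 957 were higher and 1260 lower; the higher count was 630 with the median of ratios, 1793 with thinned cells and 2138 with at least 10 UMIs, and at least 200 UMIs gave 463 and 481. Those minimums change how many genes are compared, and thinning leaves fewer UMIs; the cause of the other shifts was not tested. Leaving out barcodes found in both libraries, like leaving out cells carrying markers of other cells, was chosen after seeing the data; it kept all counts within 1.5 times.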
